A study of Mus musculus with 29 samples.

Results

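The comparison described here asks whether a tumour changes heart gene expression by the same amount when the liver carries extra REV-ERBα. It uses the hearts of all 29 mice of the study and all 12928 genes, of 20411 counted, that had enough reads to be tested. For each gene the measure is a difference of differences, the tumour effect in mice given the REV-ERBα vector, (C26_REV-ERBa minus PBS_REV-ERBa), minus the tumour effect in mice given the GFP vector, (C26_GFP minus PBS_GFP), on a log2 scale. It is called the interaction below. Where the tumour raised a gene, a negative interaction is a smaller rise with REV-ERBα, and where the tumour lowered a gene, a positive interaction is a smaller fall.

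The mice were wildtype BALB/c, and the labels number the animals separately, 1 heart each. All received an adeno-associated virus by vein whose Tbg promoter is active in hepatocytes, so every group, controls included, carries a liver vector. PBS_GFP (4 hearts) had the GFP vector and a saline injection in place of a tumour, and PBS_REV-ERBa (5 hearts) had the REV-ERBα vector and saline. C26_GFP (10 hearts) and C26_REV-ERBa (10 hearts) had the same vectors and then, 10 days later, C26 colon carcinoma cells under the skin. Sex, age and the time of day of collection are not used here. Library totals ran from 3467940 to 14740569 counts in PBS_GFP, 3207497 to 5355029 in PBS_REV-ERBa, 5684452 to 16853646 in C26_GFP and 3376113 to 7619837 in C26_REV-ERBa. The 10 cardiomyocyte markers were all present, and the mean level of the marker list lay between 11.2 and 11.5 log2 CPM (CPM is the count relative to the scaled library total) in PBS_GFP.

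Cancer cachexia is the wasting of muscle and fat that accompanies some tumours, and C26 is a widely used mouse model of it. Cytokines of the interleukin-6 family, which signal through STAT3, and adrenal glucocorticoids both rise in this state and reach the heart through the blood. REV-ERBα, the product of Nr1d1, is a nuclear receptor that represses transcription from DNA elements shared with the ROR receptors, among them elements in clock genes such as Arntl. Since the vector is expressed in the liver, any difference it makes in the heart is a difference in an organ that was not its target.

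No gene passed for the interaction in edgeR's quasi-likelihood test (0 of 12928, 0%, with p adjusted by Benjamini-Hochberg and a threshold of 0.05). The smallest p was 5.81e-05 and its adjusted p 0.278. At an unadjusted p under 0.05 there were 1357 genes (10.5% of those tested), 719 with a positive interaction (5.56%) and 638 with a negative interaction (4.94%), where an even spread of p-values would give 646 in all. DESeq2 called 9 genes and limma voom called 4, which are named further on. Both tumour effects on their own gave many calls. With the GFP vector 3642 genes passed (28.2%), 1836 higher (14.2%) and 1806 lower (14%), and with the REV-ERBα vector 935 passed (7.23%), 523 higher (4.05%) and 412 lower (3.19%). These shares are the background for every count of a gene list below. All 5 libraries above 10000000 counts were GFP hearts (2 PBS_GFP and 3 C26_GFP), and without them the tumour effect in GFP vector hearts had 1972 calls in place of 3642. The REV-ERBα count moved with single hearts, to 1201 without C26_REV-ERBa replicate 7 (tumour effect in REV-ERBa vector hearts), to 476 without PBS_REV-ERBa replicate 5 and 521 without PBS_REV-ERBa replicate 2. A larger count with one vector does not show that the effects differ, and the interaction is the test of that difference.

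**Figure D1:**
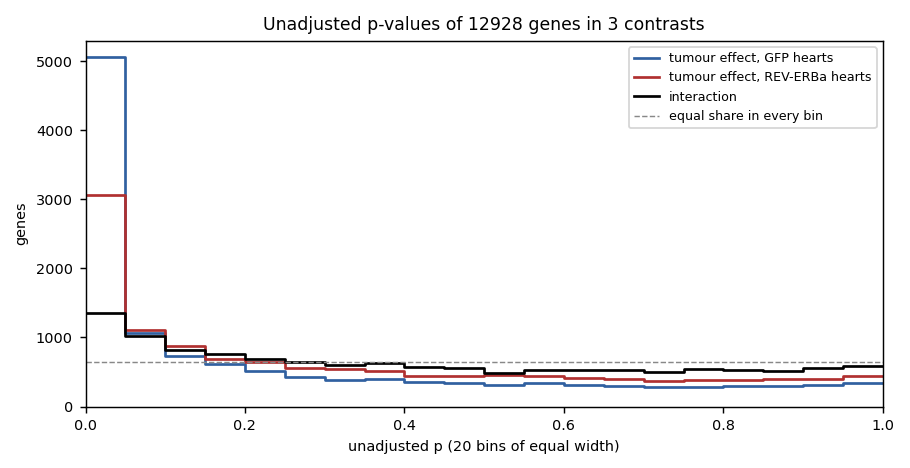
Number of genes (vertical axis) in 20 bins of unadjusted edgeR p-value (horizontal axis) for the tumour effect with each vector and for the interaction. The first bin holds 5055 genes for the tumour effect in GFP hearts, 3056 in REV-ERBa hearts and 1357 for the interaction, against the dashed line of an even spread.

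The precision of the 2 tumour effects was alike. Among the 10765 genes with a mean of at least 5 CPM, the median standard error was 0.10 log2 units for either tumour effect, and 0.14 for the interaction. The spread of the effects was not alike, with a standard deviation over these genes of 0.39 with the GFP vector and 0.29 with the REV-ERBα vector, and a median size of 0.17 against 0.12. For the interaction, the 95% interval lay within a 2-fold change in either direction for 84.4% of all tested genes and within 1.5-fold for 61.9%. For the 455 genes that changed more than 2-fold in GFP hearts it lay within 2-fold for 76 and within 1.5-fold for 8. These intervals leave a wide range of possible interactions for the genes with the largest tumour responses.

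The 2 tumour effects rest on separate hearts, so they can be set side by side. Of the 744 genes that passed with both vectors, 744 changed in the same direction. The 424 that rose had a median log2 change of 0.73 with GFP and 0.57 with REV-ERBα, and the 320 that fell had medians of -0.55 and -0.45. Genes chosen for passing in GFP hearts had smaller effects in REV-ERBa hearts. The 1836 risers had medians of 0.45 and 0.21, and 94% had the same sign. The 1806 fallers had medians of -0.41 and -0.19, and 92.4% had the same sign. Choosing genes in one set of hearts makes their effect look larger there, so the opposite choice is given too. The 523 genes that rose in REV-ERBa hearts had a median of 0.54 there and 0.61 in GFP hearts, and the 412 that fell had -0.42 and -0.44. For the 45 that fell more than 2-fold in REV-ERBa hearts the medians were -1.21 there and -1.60 in GFP hearts. So GFP hearts had the larger median effect in each of these sets. Under the second choice the margin was small for all risers and all fallers, and larger for the 45 that fell more than 2-fold. Over the 10765 genes the effects had a Pearson r of 0.74 and a Spearman rho of 0.69, given as a description, since genes of a heart share its library and depth.

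**Figure D2:**
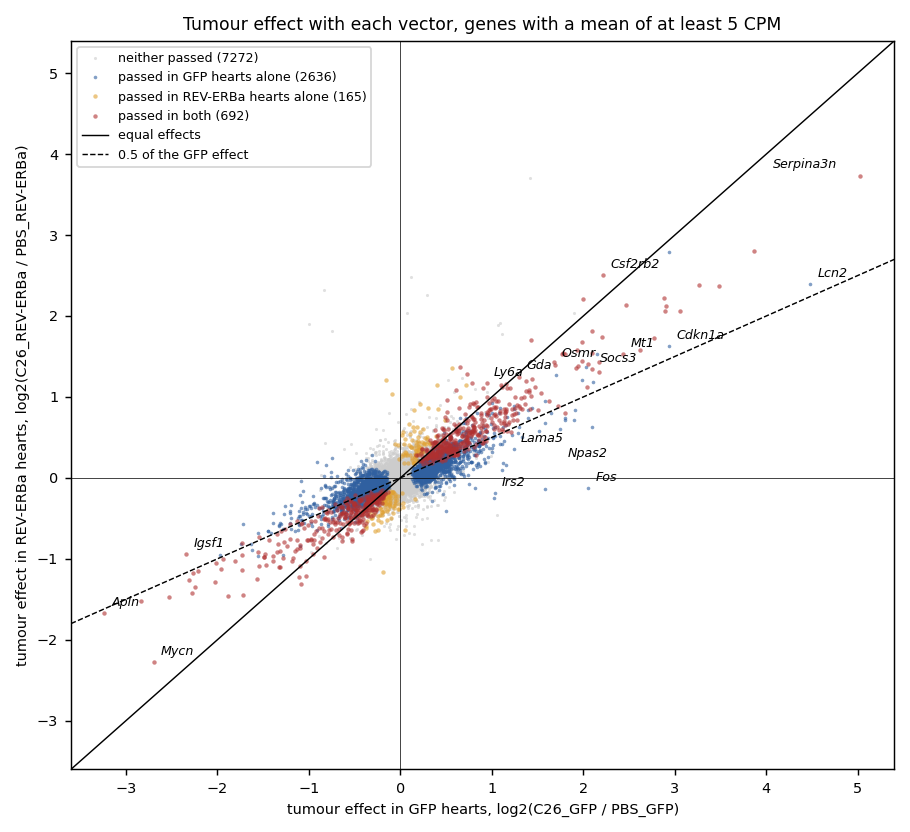
Tumour effect of each of 10765 genes with a mean of at least 5 CPM in GFP hearts (horizontal axis, log2) and in REV-ERBa hearts (vertical axis, log2), coloured by whether it passed with both vectors (692), with GFP alone (2636), with REV-ERBα alone (165) or with neither (7272), with 1 gene outside the axes. Most large responders lie between the solid line of equal effects and the dashed line at 0.5 of the GFP effect, and Ly6a lies above the solid line.

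A response was called kept when a test of its effect in REV-ERBa hearts against 0.5 of its effect in GFP hearts passed on the far side from 0, and damped when the interaction passed against the direction of the tumour effect. By these rules 0 of the 3642 GFP responders were damped, 1 was kept and 3641 could not be resolved either way (0% and 0.00774% of all genes passed the 2 tests). The kept gene was Ly6a, which encodes Sca-1, a surface protein of endothelial and progenitor cells that interferon and inflammatory signals induce (NM_010738, chromosome 15, 74994877 to 74998031, minus strand, mm10). The 4 PBS_GFP hearts had 67.3, 59.5, 70.9 and 69.5 CPM, and the 5 PBS_REV-ERBa hearts had 52.2, 60.3, 50.8, 52.7 and 55.6 CPM. The lowest, median and highest of 10 hearts were 110, 131 and 145 CPM in C26_GFP and 104, 121 and 141 CPM in C26_REV-ERBa. Every tumour-bearing heart lay above every control heart, with either vector. Ly6a rose by 0.94 ± 0.08 (SE) with GFP and by 1.18 ± 0.08 with REV-ERBα (edgeR adjusted p = 1.06e-08 and 1.06e-11). Its interaction was 0.23 (95% interval 0.014 to 0.45, unadjusted edgeR p = 0.0377), made of a vector difference of -0.29 ± 0.09 in control hearts and -0.06 ± 0.06 in tumour-bearing hearts. The excess over 0.5 of the GFP effect was 0.70 ± 0.08 (edgeR adjusted p = 2.95e-05). Ly6a belongs to a family of similar genes, and counting could split its reads among them.

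Other genes changed in the same direction with either vector, some by nearly equal amounts, without passing that test after adjustment. They were chosen after their values were seen, apart from those the fixed lists held. Jak3, a kinase of cytokine receptors in blood cells, had between 28.9 and 32.6 CPM in PBS_GFP, 24.8 to 37.5 in PBS_REV-ERBa, 46.9 to 58.8 in C26_GFP and 43.0 to 57.3 in C26_REV-ERBa. It rose by 0.78 ± 0.09 and 0.77 ± 0.09, with an interaction of -0.01 (95% interval -0.26 to 0.24). Gda, the purine enzyme guanine deaminase, rose by 1.29 and 1.25, and Ifitm3, an interferon-induced membrane protein, by 0.55 and 0.55 (interval of the interaction -0.22 to 0.22). In Gda and Jak3 all tumour-bearing hearts lay above all controls. Csf2rb2, a cytokine receptor chain with a near-identical neighbour, rose by 2.22 and 2.51. Osmr, the receptor of oncostatin M, rose by 1.69 ± 0.15 and 1.40 ± 0.14, and its signalling partner Stat3 by 0.68 ± 0.07 and 0.54 ± 0.06. Among genes that fell, the growth transcription factor Mycn changed by -2.69 ± 0.28 and -2.28 ± 0.27. C26_REV-ERBa hearts were uneven in Mycn, with 11.3 CPM in replicate 7 and 6.12 in replicate 1 against 1.70 to 4.27 CPM in the others. For these genes an interaction of 0 was inside the interval, and so were changes of the size each interval allows.

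**Figure D3:**
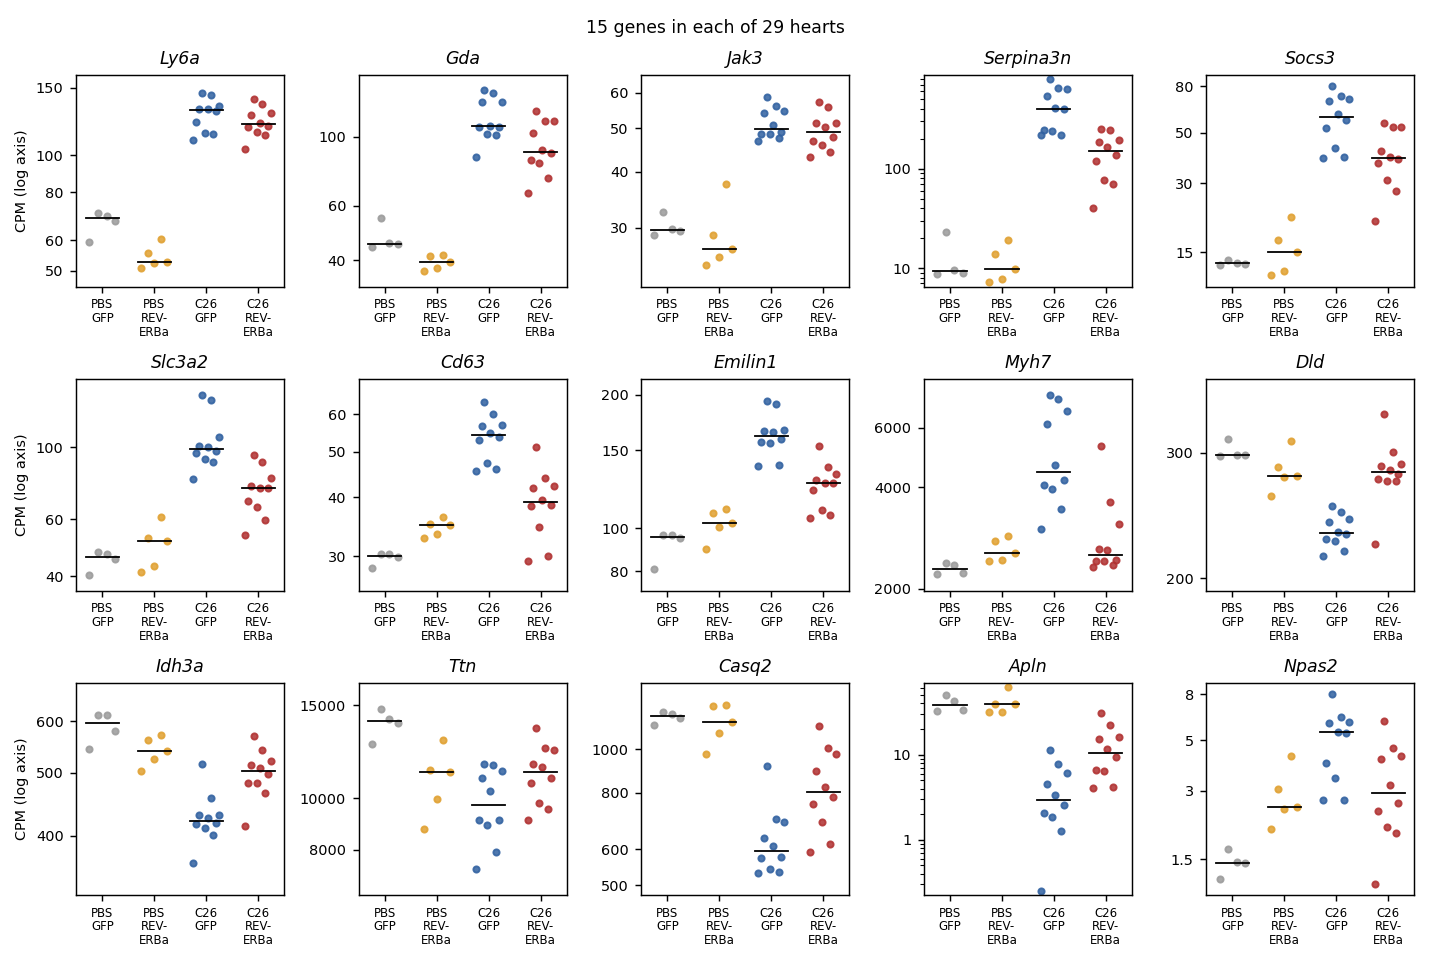
Level of 15 genes in each of 29 hearts (CPM, log axes), 1 panel a gene, with hearts grouped as PBS_GFP (4), PBS_REV-ERBa (5), C26_GFP (10) and C26_REV-ERBa (10). Points are hearts and bars are group medians. Ly6a, Gda and Jak3 rise with either vector, while the C26_REV-ERBa median sits between the control medians and the C26_GFP median in Serpina3n, Slc3a2, Casq2 and Apln.

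The 12 genes with the smallest interaction p-values, none of which passed in edgeR, all had an interaction against the tumour effect in GFP hearts. Since the interaction contains the GFP effect, that direction is partly fixed by how they were picked. Cd63, a tetraspanin of endosomes and lysosomes, had 30.4, 30.3, 28.4 and 29.9 CPM in PBS_GFP and 35.0, 35.1, 33.4, 36.4 and 32.9 in PBS_REV-ERBa. The lowest, median and highest levels were 45.4, 54.3 and 63.7 CPM in C26_GFP and 29.4, 39.1 and 51.1 in C26_REV-ERBa. So C26_GFP hearts stood apart from all controls, and C26_REV-ERBa hearts overlapped with them. Cd63 rose by 0.85 ± 0.11 with GFP (edgeR adjusted p = 2.41e-06), its effect with REV-ERBα was 0.18 ± 0.10 (edgeR adjusted p = 0.278), and its interaction was -0.67 (95% interval -0.97 to -0.38). Limma voom called it. The matrix glycoprotein gene Emilin1 rose by 0.83 ± 0.09 and 0.29 ± 0.08, with an interaction of -0.54 that DESeq2 called. Its levels were 81.0 to 96.5 CPM and 90.0 to 110 CPM in the control groups, 138 to 194 CPM in C26_GFP and 105 to 153 CPM in C26_REV-ERBa.

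Lama5, a laminin chain of basement membranes, rose by 1.24 ± 0.17 with GFP and had 0.36 ± 0.15 with REV-ERBα. Part of its interaction of -0.88 came from control hearts, where the vector difference was 0.57, with 1 PBS_REV-ERBa heart at 132 CPM against 61.3 to 82.3 CPM in the other 4. Leng8 rose by 0.42 and had 0.10, and Anapc5, a subunit of the anaphase-promoting complex, rose by 0.35 and had 0.08. Dlg5, a scaffold of cell junctions, rose by 0.26 with GFP and had -0.20 with REV-ERBα. Faap20, of the Fanconi anaemia pathway, rose by 0.50 and had -0.41, Cirh1a, a ribosome biogenesis factor, rose by 0.35 and had -0.28, and the histone deacetylase gene Hdac5 rose by 0.24 and had -0.15. In these last 4 genes the fitted mean was higher in PBS_REV-ERBa than in PBS_GFP and lower in C26_REV-ERBa than in C26_GFP. The same held for Cd63 (vector difference 0.21 in control and -0.46 in tumour-bearing hearts), Emilin1, Lama5, Leng8 and Anapc5. With both signs reversed it held for Dld, Lipt1 and Glrx, described next. Control hearts enter every interaction by its definition. Picking small interaction p-values favours genes whose vector differences have opposite signs in control and tumour-bearing hearts, so this pattern is partly fixed by the choice.

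Of the 12 genes, 3 fell with the tumour, and 2 of these serve lipoic acid enzymes of mitochondria. Dld encodes the dihydrolipoamide dehydrogenase shared by the pyruvate, 2-oxoglutarate and branched-chain complexes (NM_007861, chromosome 12, 31331562 to 31351471, minus strand, mm10). It had 314, 298, 298 and 297 CPM in PBS_GFP and 287, 277, 261, 312 and 278 CPM in PBS_REV-ERBa. The lowest, median and highest levels were 215, 231 and 253 CPM in C26_GFP and 224, 282 and 340 CPM in C26_REV-ERBa. All C26_GFP hearts lay below all controls, while the median of C26_REV-ERBa hearts lay inside the control range. Dld fell by 0.37 on the log2 scale with GFP, its effect with REV-ERBα was -0.00 ± 0.06, and its interaction of 0.37 (95% interval 0.19 to 0.55) was called by DESeq2 and voom. Lipt1, a lipoyl transferase, changed by -0.52 and 0.10, and Glrx, the cytosolic glutaredoxin, by -0.60 and -0.02, with voom calling Glrx. The calls of DESeq2 were Leng8, Emilin1, Dld, Lama5, Mllt6, Anapc5, Htra3, Hdac5 and Pabpn1, and those of voom were Cd63, Leng8, Dld and Glrx.

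**Figure D4:**
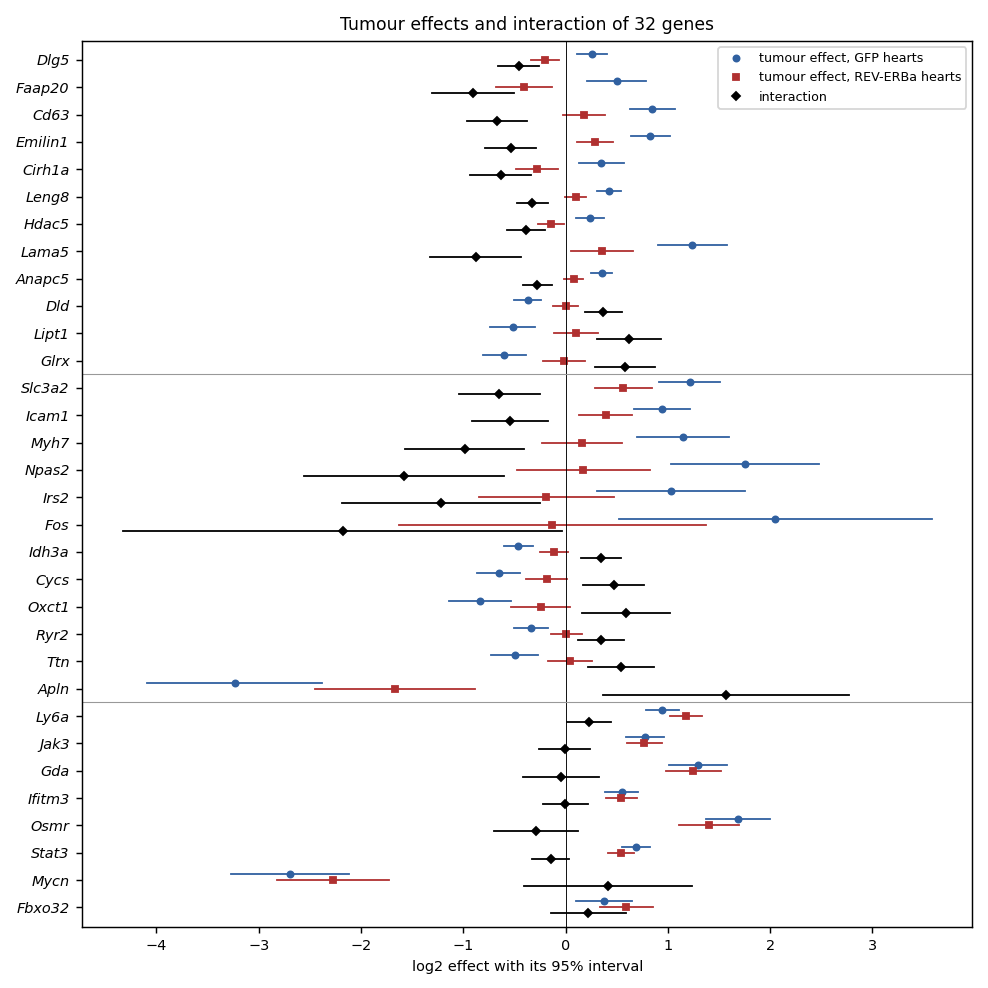
Log2 tumour effect in GFP hearts, in REV-ERBa hearts and their interaction (horizontal axis) with 95% intervals for 32 genes, the 12 smallest interaction p-values at the top, 12 responders from the gene lists in the middle and 8 genes with similar effects at the bottom. The interaction of Cd63 runs from -0.97 to -0.38 and that of Jak3 from -0.26 to 0.24.

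The acute phase and STAT3 list describes the cytokine arm. Of its 22 tested members 17 rose with GFP and 10 with REV-ERBα (14.2% and 4.05% of all genes), none fell with either, and the medians were 1.17 and 1.09 log2 units. Without PBS_GFP replicate 2, whose liver transcripts were high, they were 1.60 and 1.09, and with the hepatocyte marker level as a covariate 1.61 and 1.15. For the interaction, 3 members had a negative value at an unadjusted p under 0.05 (Socs3, Lrg1 and Cp) and 3 a positive one (Fga, Fgb and Fgg, the fibrinogen chains made in liver, which are taken up below), against 4.94% and 5.56% of all genes. Without PBS_GFP replicate 2 these counts were 5 and 0. Serpina3n, a secreted protease inhibitor, had 9.56, 22.8, 8.61 and 9.01 CPM in PBS_GFP and 19.0, 9.85, 13.7, 7.28 and 7.78 CPM in PBS_REV-ERBa. It reached 216, 401 and 789 CPM (lowest, median, highest) in C26_GFP and 39.7, 150 and 252 CPM in C26_REV-ERBa. No tumour-bearing heart overlapped with a control. It rose by 5.02 ± 0.53 and 3.73 ± 0.48, so the response was large with either vector, and its interaction was -1.29 (95% interval -2.65 to 0.07). Lrg1, a secreted glycoprotein, rose by 2.04 and 1.13 (interaction -0.92, unadjusted edgeR p = 0.0179). Il1r1, the interleukin-1 receptor, rose by 1.04 and 0.86, and Cebpd, a transcription factor of the acute phase, by 1.37 and 1.20. The lipocalin gene Lcn2 rose by 4.48 with GFP and had 2.39 ± 0.89 with REV-ERBα (edgeR adjusted p = 0.0981). Its control hearts had only 0.19 to 2.04 CPM, and the 95% interval of its interaction ran from -5.07 to 0.89. Several genes of one pathway thus ran from nearly equal to clearly unequal point estimates, with no single difference past the threshold.

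Socs3, the feedback inhibitor that STAT3 induces, had 13.5, 13.8, 13.2 and 13.4 CPM in PBS_GFP and 15, 12.5, 21.4, 11.9 and 16.9 CPM in PBS_REV-ERBa. Its lowest, median and highest levels were 38.8, 58.7 and 80.3 CPM in C26_GFP and 20.6, 38.7 and 55.1 CPM in C26_REV-ERBa. All C26_GFP hearts lay above all controls, and the lowest C26_REV-ERBa heart lay just under the highest PBS_REV-ERBa heart. It rose by 2.10 ± 0.24 and 1.35 ± 0.22 (edgeR adjusted p = 5.06e-07 and 0.000337), with an interaction of -0.75 (95% interval -1.39 to -0.11). Its promoter is shown because it holds the STAT motif TTCNNNGAA, in capitals, 154 bases before the gene start. The window is the 250 bases upstream of the start on the minus strand, chr11:117969367-117969616 of GRCm38.p6, from RefSeq.
Socs3 promoter: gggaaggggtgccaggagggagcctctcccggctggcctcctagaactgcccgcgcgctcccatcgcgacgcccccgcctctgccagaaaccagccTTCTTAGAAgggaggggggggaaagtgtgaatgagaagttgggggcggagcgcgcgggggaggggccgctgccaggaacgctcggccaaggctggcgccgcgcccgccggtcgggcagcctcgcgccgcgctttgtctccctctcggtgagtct
The motif reads the same on both strands. It occurred in 4 of 21 acute phase promoters in the table (19%), Socs3, Fgl2, Fga and Fgb, and in 602 of 9854 promoters of tested genes (6.11%). A match describes the letters only.

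Among chemokines and NF-kB feedback genes, 10 of 19 rose with GFP (5 without PBS_GFP replicate 1, 6 without replicate 2) and 4 with REV-ERBα (2 without PBS_REV-ERBa replicate 4 or 5), with medians of 0.29 and 0.04. Over all genes 14.2% and 4.05% rose. The macrophage chemokine genes Ccl6 (1.77 and 1.54) and Ccl9 (1.44 and 1.22) rose with either vector. Their levels were lower with REV-ERBα, by vector differences of -0.69 and -0.70 in control hearts and -0.92 and -0.92 in tumour-bearing hearts. The adhesion molecule gene Icam1 rose by 0.94 ± 0.13 with GFP and had 0.39 ± 0.13 with REV-ERBα, with an interaction of -0.54 (unadjusted edgeR p = 0.00561). Of 15 macrophage and monocyte markers 7 rose with GFP and 6 with REV-ERBα (14.2% and 4.05% of all genes). For the interaction, 0 had an unadjusted p under 0.05 (10.5% of all genes), with a median of -0.05. In whole hearts more cells of a type and more RNA per cell cannot be told apart. Few interferon and antigen presentation genes passed. Of 22, 2 rose and 1 fell with GFP, against 14.2% and 14% of all genes. With REV-ERBα 3 rose (1 without PBS_REV-ERBa replicate 1, 2, 3 or 4, and 4.05% of all genes). The interaction was positive in 19, 2 of them at an unadjusted p under 0.05 against 5.56% of all genes, with medians of 0.06 and 0.22 for the tumour effects and 0.21 for the interaction. Tap1, the peptide transporter of antigen presentation, had 0.09 ± 0.19 with GFP and rose by 0.67 ± 0.20 with REV-ERBα (edgeR adjusted p = 0.0359). Gbp3, a guanylate-binding protein, fell by 0.81 on the log2 scale with GFP and had 0.16 with REV-ERBα, and Gbp4 had -0.09 and 1.03. Gbp4 controls were uneven, with 117, 37.2, 84.6 and 41.3 CPM in PBS_GFP against 30.9 to 49.0 CPM in PBS_REV-ERBa. Without PBS_GFP replicate 2 the list's median effect with GFP was -0.07 and its median interaction 0.28. Without PBS_GFP replicate 1 they were 0.13 and 0.10, and 0 interactions had an unadjusted p under 0.05.

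Glucocorticoid receptor targets rose with either vector, 14 of 22 with GFP and 6 with REV-ERBα (3 without PBS_REV-ERBa replicate 5), against 14.2% and 4.05% of all genes. The medians were 0.97 and 0.55. The interaction was negative in 21 of 22 members, 3 of them at an unadjusted p under 0.05 (4.94% of all genes), and 0 without PBS_GFP replicate 2. Fkbp5, a chaperone of the receptor, rose by 2.17 ± 0.43 and 1.44 ± 0.40. Replicates 1, 4, 7 and 10 of C26_REV-ERBa had 40.4, 35.1, 46.5 and 59.2 CPM of Fkbp5, in or near the control range of 23.9 to 53.8 CPM. The other hearts of that group had 87.4 to 165 CPM. The same replicates were nearest to controls in Hcn2, Hcn4, Rtn4r and Tfrc, but not all of them in Socs3. These genes were picked after their values were seen, and the cause was not tested. The metallothionein gene Mt1, which binds zinc, had 14.1 to 21.3 CPM in PBS_GFP, 15.2 to 20.4 in PBS_REV-ERBa, 43.0 to 178 in C26_GFP and 20.3 to 78.0 in C26_REV-ERBa. It rose by 2.44 and 1.53 (interaction -0.90, unadjusted edgeR p = 0.0494), and its near-identical relative Mt2 by 3.86 and 2.81, from 1.15 to 3.49 CPM in control hearts. Cdkn1a, a cell cycle inhibitor, rose by 2.93 ± 0.63 with GFP and had 1.63 ± 0.59 with REV-ERBα. Plin4, a lipid droplet coat protein, rose by 1.02 and had 0.50. The transferrin receptor gene Tfrc fell by 1.62 on the log2 scale and had -0.89. The 95% interval of the Cdkn1a interaction ran from -2.99 to 0.38.

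Amino acid and insulin genes held several of the smaller p-values. Slc3a2, the heavy chain of amino acid transporters, had 46.8, 45.2, 40.5 and 47.7 CPM in PBS_GFP and 43.0, 60.8, 51.5, 41.4 and 52.7 CPM in PBS_REV-ERBa. Its lowest, median and highest levels were 79.9, 98.8 and 145 CPM in C26_GFP and 53.5, 75.1 and 94.4 CPM in C26_REV-ERBa. It rose with either vector, by 1.21 ± 0.15 and 0.57 ± 0.13 (edgeR adjusted p = 1.27e-06 and 0.0102), and its interaction was -0.65 (95% interval -1.04 to -0.25). Of 17 ATF4 genes, 3 rose and 1 fell with GFP (14.2% and 14% of all genes), and 3 rose with REV-ERBα (4.05% of all genes). The count with REV-ERBα was 1 without PBS_REV-ERBa replicate 1, 2, 3 or 5. Psat1, of serine synthesis, was at 1.02 and 0.50. Ddit4, an inhibitor of mTOR, rose by 1.91 and 1.35. Of 26 genes of insulin, IGF and mTOR signalling, 10 rose and 2 fell with GFP (14.2% and 14% of all genes). With REV-ERBα 2 rose (0 without PBS_REV-ERBa replicate 4 or 5, and 4.05% of all genes). At an unadjusted p under 0.05, 5 had a negative interaction (3 without PBS_REV-ERBa replicate 2, and 4.94% of all genes) and 0 a positive one (5.56%). Irs2, an adaptor of the insulin receptor, rose by 1.03 ± 0.35 with GFP and had -0.19 ± 0.32 with REV-ERBα. Igfbp3, an IGF-binding protein, rose by 0.74 and had 0.04, Igfbp4 rose by 1.42 and 0.85, and Eif4ebp1, the translation inhibitor 4E-BP1, rose by 0.81 and had 0.28. Of 45 cytosolic ribosomal protein genes 21 rose with GFP and 0 with REV-ERBα, against 14.2% and 4.05% of all genes. Their medians were 0.25 and 0.08, and 41 had a negative interaction, 7 at an unadjusted p under 0.05 (4.94% of all genes). The count of 21 was 4 without the 5 libraries above 10000000 counts and 10 without the 8 with high atrial markers, 11 without PBS_GFP replicate 2 and 10 without replicate 4. The count of 7 ran from 2 to 11 when each control heart was left out. Rpl3 was at 0.52 and 0.15 and Rps28 at 0.42 and -0.05, and reads of such genes can be shared with processed copies.

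Clock genes of the arm that REV-ERB receptors repress rose in GFP hearts, 4 of 6 (14.2% of all genes). In REV-ERBa hearts 0 passed, but only 7.23% of all genes did, so a count of 0 among 6 genes says little. The medians were 1.06 and 0.25. Npas2, the partner of BMAL1, had 1.66, 1.23, 1.43 and 1.45 CPM in PBS_GFP and 3.07, 2.03, 2.55, 2.49 and 4.28 CPM in PBS_REV-ERBa. Its lowest, median and highest levels were 2.74, 5.43 and 8.01 CPM in C26_GFP and 1.17, 2.92 and 6.07 CPM in C26_REV-ERBa. The highest PBS_GFP heart lay below the lowest PBS_REV-ERBa heart, with a fitted vector difference of 0.99 log2 units without a tumour that was not tested on its own. These control levels rest on few reads, 5 to 24 in PBS_GFP hearts and 7 to 22 in PBS_REV-ERBa hearts. Npas2 rose by 1.75 ± 0.35 with GFP and had 0.17 ± 0.32 with REV-ERBα, with an interaction of -1.58 (95% interval -2.55 to -0.61, unadjusted edgeR p = 0.00242). Arntl, which encodes BMAL1, rose by 1.83 ± 0.57 and had 0.97 ± 0.61, but its levels were at most 1.46 CPM in controls. Nr1d1 itself passed with neither vector (-0.52 ± 0.21 and -0.27 ± 0.19). Its interaction was 0.25 (95% interval -0.34 to 0.83), and heart counts of this gene do not check which liver vector a mouse received.

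Nfil3, a repressor of D-box genes, rose by 1.0 ± 0.28 and had 0.32 ± 0.27. Its promoter is shown as the only one of the arm's 5 promoters in the table with the ROR element core AGGTCA, which lies 12 bases before the start on the opposite strand and so reads TGACCT, in capitals. The window is the 250 bases upstream on the minus strand, chr13:52981040-52981289 of GRCm38.p6, from RefSeq.
Nfil3 promoter: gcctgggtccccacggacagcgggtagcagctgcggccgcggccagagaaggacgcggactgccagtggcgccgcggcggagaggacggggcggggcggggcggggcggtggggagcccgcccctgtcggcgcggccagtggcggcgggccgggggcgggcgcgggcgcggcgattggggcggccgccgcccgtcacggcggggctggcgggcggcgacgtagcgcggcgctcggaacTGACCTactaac
These letters, on either strand, occurred in 10.4% of promoters of tested genes. Of 12 genes of the PER and D-box arm, 5 fell with GFP (3 without PBS_GFP replicate 1, 2 or 3) and 1 with REV-ERBα (0 without any 1 of the PBS_REV-ERBa hearts), with medians of -0.29 and -0.06. Over all genes 14% and 3.19% fell. Dbp, a D-box activator, fell by 1.11 on the log2 scale and had -0.41. Hlf was at -0.69 and -0.39 and Ciart at -0.78 and -0.30. Immediate early genes, which respond within minutes to stimuli and to handling of tissue, had a negative interaction in 18 of 18. The median interaction of all genes was 0.0006. Of the 18, 5 had an unadjusted p under 0.05 (4.94% of all genes), and 1 to 8 when each control heart was left out. With GFP 5 rose (2 without PBS_GFP replicate 1 or 2), with REV-ERBα 2 rose (0 without PBS_REV-ERBa replicate 2 or 5) and 1 fell, and the medians were 0.55 and -0.13. Over all genes 14.2% rose with GFP, and 4.05% rose and 3.19% fell with REV-ERBα. Fos ranged from 3.06 to 73.8 CPM among C26_GFP hearts with a median of 6.65, and from 2.29 to 10.2 CPM in C26_REV-ERBa. The C26_GFP hearts were thus uneven behind its rise of 2.05 ± 0.75, and its effect with REV-ERBα was -0.13 ± 0.74. Atf3 was at 1.59 and -0.14, Nr4a1 at 1.05 and -0.46, and Myc at 1.35 and 1.0.

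**Figure D5:**
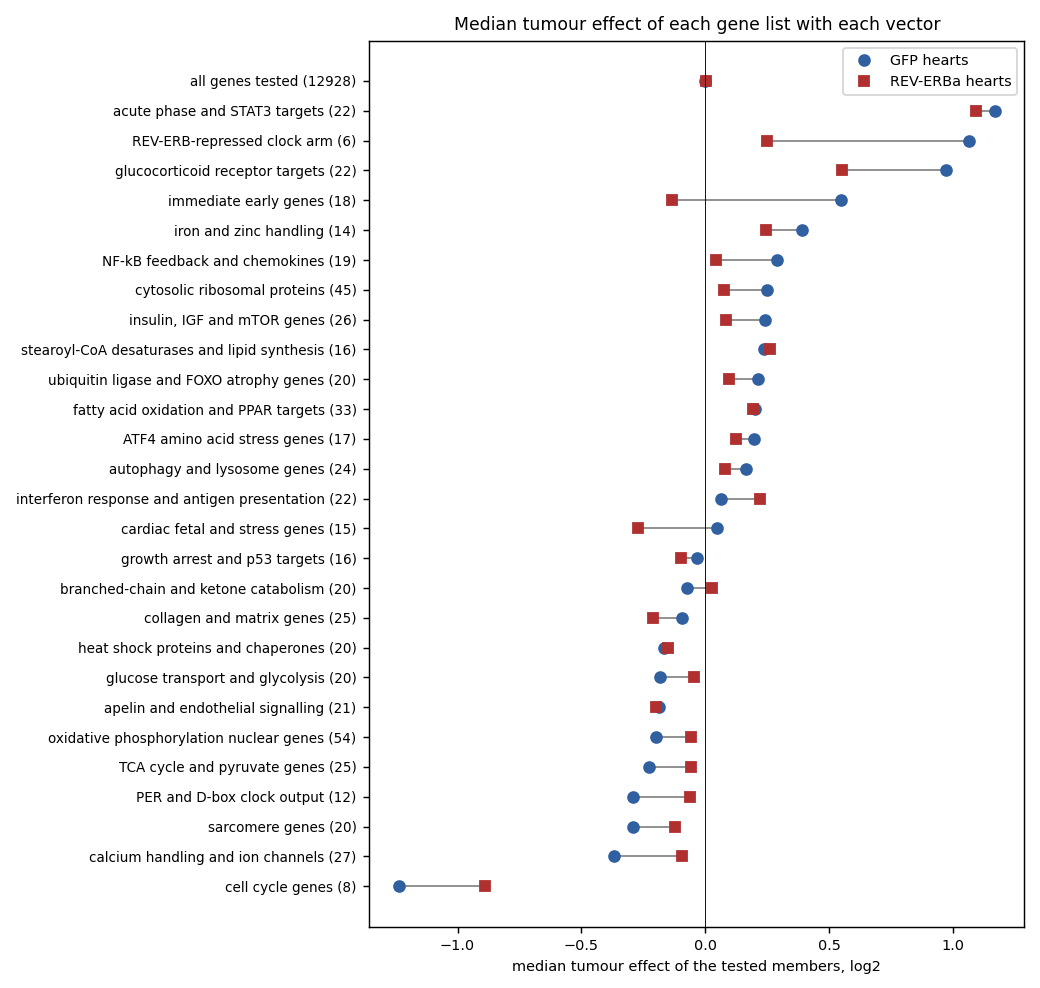
Median log2 tumour effect of the tested members of 27 gene lists (number of members in brackets) and of all tested genes, in GFP hearts (circles) and REV-ERBa hearts (squares). Acute phase genes have medians of 1.17 and 1.09 (1.60 and 1.09 without PBS_GFP replicate 2), the REV-ERB-repressed clock arm 1.06 and 0.25, and calcium handling genes -0.37 and -0.09.

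Many genes of mitochondrial energy supply fell in GFP hearts, and few passed in REV-ERBa hearts. Of 54 nuclear genes of oxidative phosphorylation 25 fell with GFP and 0 with REV-ERBα, against 14% and 3.19% of all genes. The medians were -0.20 and -0.06, and 50 had a positive interaction. At an unadjusted p under 0.05, 12 were positive and 0 negative, against 5.56% and 4.94% of all genes. Without the 5 libraries above 10000000 counts, 11 in place of 25 fell and 5 in place of 12 had such an interaction, and without PBS_GFP replicate 1 they were 13 and 7. Leaving out each control heart in turn gave 7 to 18 of them, and a median interaction of 0.07 to 0.19 in place of 0.14. Cycs, cytochrome c, had 420, 395, 398 and 374 CPM in PBS_GFP and 382, 349, 363, 377 and 338 CPM in PBS_REV-ERBa, then 193 to 330 CPM (median 246) in C26_GFP and 221 to 384 CPM (median 328) in C26_REV-ERBa. It fell by 0.66 on the log2 scale with GFP and had -0.19 ± 0.10 with REV-ERBα, with an interaction of 0.47 (95% interval 0.17 to 0.77). Uqcrfs1, the iron-sulfur protein of complex III, was at -0.42 and -0.10, Sdhd of complex II at -0.38 and -0.11, Ndufs8 of complex I at -0.52 and -0.21 and Cox7a1 of complex IV at -0.57 and -0.27.

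The TCA cycle and pyruvate list showed the same form. With GFP 13 of 25 were lower and 2 higher (14% and 14.2% of all genes), and 0 passed with REV-ERBα (7.23%). It had 10 positive and 1 negative interactions at an unadjusted p under 0.05 (5.56% and 4.94% of all genes). Without those 5 libraries they were 6 and 0. Idh3a, the catalytic subunit of the NAD-linked isocitrate dehydrogenase, had 613, 580, 613 and 544 CPM in PBS_GFP and 561, 524, 540, 571 and 504 CPM in PBS_REV-ERBa. It had 363, 422 and 515 CPM (lowest, median, highest) in C26_GFP and 413, 503 and 570 CPM in C26_REV-ERBa, so C26_GFP hearts lay below all PBS_GFP hearts and the REV-ERBa groups overlapped. It fell by 0.46 on the log2 scale and had -0.11 ± 0.07, with an interaction of 0.35 (95% interval 0.15 to 0.54). Citrate synthase (Cs) was at -0.33 and -0.08, the 2-oxoglutarate complex subunit Dlst at -0.53 and -0.23 and the pyruvate dehydrogenase subunits Pdhb at -0.51 and -0.21 and Pdhx at -0.44 and -0.08. Idh2, the NADP-linked enzyme, rose by 0.54 and had 0.26. Among ketone genes, Oxct1, the entry enzyme of ketone use, was at -0.84 and -0.24 and Bdh1 at -0.76 and 0.01.

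Fatty acid oxidation did not share this form. Of 33 genes 12 rose and 2 fell with GFP (14.2% and 14% of all genes). With REV-ERBα 5 rose (2 without PBS_REV-ERBa replicate 1, 2 or 5, and 4.05% of all genes). The medians were 0.20 and 0.19, and 0 had an interaction at an unadjusted p under 0.05, against 10.5% of all genes. The lipase gene Lipe rose by 1.16 and 0.83, and Acot1, a thioesterase and PPARα target, rose by 2.11 and had 1.18. Of 20 glycolysis genes 10 fell (6 without PBS_GFP replicate 1) and 3 rose (1 without PBS_GFP replicate 3) with GFP, against 14% and 14.2% of all genes. With REV-ERBα 0 fell and 2 rose (1 and 1 without PBS_REV-ERBa replicate 3), against 3.19% and 4.05% of all genes. The medians were -0.18 and -0.04. The interaction was positive in 3 and negative in 2 at an unadjusted p under 0.05 (5.56% and 4.94% of all genes). Eno3, the muscle enolase, was at -0.62 and -0.30, while Pfkfb3 and Pfkfb1, isoforms that set the level of a glycolytic activator, were at 1.10 and 1.15 and at -0.91 and 0.19. The interaction of Pfkfb1 was 1.10 (95% interval 0.40 to 1.80).

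Many genes of calcium handling and contraction fell in GFP hearts. Of 27 calcium and ion channel genes 16 fell with GFP and 5 with REV-ERBα (14% and 3.19% of all genes), with medians of -0.37 and -0.09. At an unadjusted p under 0.05, 8 had a positive interaction and 0 a negative one (5.56% and 4.94% of all genes). Leaving out each control heart in turn gave 4 to 9 such genes, the fewest without PBS_GFP replicate 1, and the REV-ERBa count of 5 was 2 without PBS_REV-ERBa replicate 1 or 4. Casq2, the calcium store protein of cardiac sarcoplasmic reticulum, had 1208, 1130, 1170 and 1196 CPM in PBS_GFP and 1251, 1085, 977, 1245 and 1147 CPM in PBS_REV-ERBa. The lowest, median and highest levels were 533, 594 and 916 CPM in C26_GFP and 591, 804 and 1126 CPM in C26_REV-ERBa. It fell with either vector, by 0.90 and by 0.47 on the log2 scale (edgeR adjusted p = 1.47e-05 and 0.0211). Camk2d, the cardiac calmodulin kinase, fell by 0.76 and by 0.42. Ryr2, the calcium release channel, fell by 0.34 with GFP and had 0.01 ± 0.08 with REV-ERBα. Its control hearts differed, at 2156 to 2244 CPM in PBS_GFP and 1812 to 2277 CPM in PBS_REV-ERBa. The pacemaker channel genes Hcn2 (-1.05 and -0.36) and Hcn4 (-1.06 and -0.56) fell with GFP, and the skeletal calsequestrin Casq1 (-1.72 and -1.44) fell with either vector.

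Ttn, the giant spring protein of the sarcomere, shows how control hearts enter an interaction. It had 12634, 13874, 14139 and 14743 CPM in PBS_GFP and 8764, 9987, 11225, 12860 and 11312 CPM in PBS_REV-ERBa. Its lowest, median and highest levels were 7355, 9712 and 11596 CPM in C26_GFP and 9100, 11192 and 13598 CPM in C26_REV-ERBa. Its interaction of 0.54 (95% interval 0.22 to 0.86) was made of a vector difference of -0.35 without a tumour and 0.19 with one. Among all 1357 genes with an unadjusted p under 0.05 the vector difference was larger in tumour-bearing hearts for 782 and larger in control hearts for 575. Of 20 sarcomere genes 11 fell and 3 rose with GFP (14% and 14.2% of all genes) and 3 fell with REV-ERBα (3.19% of all genes). Tpm1, a tropomyosin, fell by 0.85 and by 0.36, and the cardiac actin gene Actc1 by 0.92 and by 0.65.

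Myh7, the slow myosin heavy chain that rises in stressed mouse hearts, had 2388, 2230, 2212 and 2353 CPM in PBS_GFP and 2430, 2548, 2779, 2879 and 2413 CPM in PBS_REV-ERBa. It had 3007, 4428 and 7485 CPM (lowest, median, highest) in C26_GFP and 2322, 2521 and 5317 CPM in C26_REV-ERBa. Every C26_GFP heart lay above every control, while the median of C26_REV-ERBa hearts lay among the controls and replicate 9 stood highest. Myh7 rose by 1.15 ± 0.22 with GFP and had 0.16 ± 0.19 with REV-ERBα, with an interaction of -0.99 (95% interval -1.57 to -0.41). Of 15 tested cardiac fetal and stress genes, Myh7 included, 1 rose and 2 fell with GFP (14.2% and 14% of all genes). With REV-ERBα 0 rose and 1 fell (4 without PBS_REV-ERBa replicate 3), and the medians were 0.05 and -0.27. The interaction was negative in 3 and positive in 0 at an unadjusted p under 0.05 (4.94% and 5.56% of all genes). Acta1, skeletal actin, fell with either vector, by 2.02 and by 1.29, and Myom2, an M-band protein, rose by 1.09 and had 0.42. Atrophy genes were mixed, with 8 of 20 higher with GFP (5 without PBS_GFP replicate 1 or 2) and 2 with REV-ERBα, against 14.2% and 4.05% of all genes. The ubiquitin ligase gene Fbxo32 rose by 0.37 ± 0.13 and 0.59 ± 0.13, Trim63 rose by 0.54 and had 0.28, and Fbxo31 rose by 1.15 and 0.81. Autophagy genes rose in 9 of 24 with GFP and 4 of 24 with REV-ERBα, against 14.2% and 4.05% of all genes. The count of 4 was 0 without PBS_REV-ERBa replicate 2 or 5 and 1 without replicate 1, 3 or 4. Among the genes were Bnip3 (1.36 and 0.91) and Gabarapl1 (0.82 and 0.59). Of 20 heat shock genes 9 fell with GFP (14% of all genes) and 5 with REV-ERBα (3.19%, and 1 without PBS_REV-ERBa replicate 2). Among them were Hsph1 (-1.21 and -0.57) and Hspa1b (-2.21 and -1.16), whose reads can be shared with Hspa1a. Hspa1b had 17.2 to 29.2 CPM in PBS_GFP and 5.52 to 12.4 CPM in PBS_REV-ERBa, so its smaller fall with REV-ERBα starts from a lower control level. Its tumour-bearing hearts had 2.42 to 6.95 CPM in C26_GFP and 1.89 to 11.4 CPM in C26_REV-ERBa. Hspa1a controls had 25.9 to 38.2 and 8.94 to 16.7 CPM.

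Apelin signalling genes fell. Apln, the peptide ligand, had 42.5, 32.8, 49.6 and 33.1 CPM in PBS_GFP and 31.3, 39.1, 31.3, 39.5 and 62.0 CPM in PBS_REV-ERBa. Its lowest, median and highest levels were 0.25, 2.97 and 11.4 CPM in C26_GFP and 4.0, 10.5 and 31.2 CPM in C26_REV-ERBa. Tumour-bearing hearts lay below all controls with either vector, the highest C26_REV-ERBa heart by a narrow margin. The log2 change was -3.23 ± 0.42 and -1.67 ± 0.38 (edgeR adjusted p = 3.42e-06 and 0.00751), and the interaction was 1.57 (95% interval 0.36 to 2.77). Its receptor gene Aplnr fell by 2.24 and by 1.34. Other genes with large falls were Igsf1, a membrane glycoprotein (-2.34 and -0.94), Akap5, an anchor of protein kinase A (-2.53 and -1.47), and Rtn4r, the Nogo receptor (-2.83 and -1.52), a set chosen earlier from these samples and so no independent evidence. Collagen and matrix genes had 5 higher and 7 lower of 25 with GFP (2 lower without the 5 deepest libraries), 3 higher (1 without PBS_REV-ERBa replicate 2 or 5) and 6 lower with REV-ERBα, and 0 interactions at an unadjusted p under 0.05. Over all genes 14.2% were higher and 14% lower with GFP, and 4.05% and 3.19% with REV-ERBα. Mmp3, a matrix protease, rose by 3.05 and 2.07, from only 0.19 to 2.55 CPM in control hearts. Lox, the collagen crosslinker, rose by 1.80 and had 0.74, and Postn fell by 1.18 and by 1.02. Of 8 cell cycle genes 6 fell with GFP and 3 with REV-ERBα (14% and 3.19% of all genes), with Mki67 at -2.28 and -1.42.

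Large interactions were found for liver transcripts, which were high in some hearts of each group except PBS_REV-ERBa. Alb, serum albumin, had 0.35, 27.5, 1.15 and 0.29 CPM in PBS_GFP, where replicate 2 holds the 27.5, and at most 0.39 CPM in PBS_REV-ERBa. It had 0.23, 0.54 and 4.84 CPM (lowest, median, highest) in C26_GFP and 0.28, 2.35 and 38.1 CPM in C26_REV-ERBa, where replicates 2, 3, 4 and 10 held 8.01, 13.9, 5.30 and 38.1. Fga followed it, with 13.3 CPM in PBS_GFP replicate 2 and 0 counts in all 5 PBS_REV-ERBa hearts, so no fold change is given. Of the tumour-bearing hearts, 6 of 10 in C26_REV-ERBa had 6.41 to 50.5 CPM of Fga and the other 4 at most 0.297, while 2 of 10 in C26_GFP had 8.62 and 14.7 CPM and the other 8 at most 1.27. The mean level of 8 tested hepatocyte markers was 3.97 log2 CPM in PBS_GFP replicate 2 and -0.83 to -0.55 in the other 3 PBS_GFP hearts, and 4.03 in C26_REV-ERBa replicate 10, with a range of -0.56 to 4.03 in that group. It ran from -0.00 to 2.53 in C26_GFP and from -1.01 to 0.13 in PBS_REV-ERBa. Ahsg and Apoa2, defining hepatocyte products, had counts in all 29 hearts. The part of these markers in other results was not tested beyond the values given here. With this level as a covariate the interaction still had 0 calls in edgeR, and the acute phase list had 0 positive and 6 negative interactions at an unadjusted p under 0.05. Negative ones went from 7 to 17 in the ribosomal list, from 5 to 2 in the immediate early list and from 3 to 0 in the glucocorticoid list, and positive ones from 12 to 7 in the oxidative phosphorylation list. Atrial markers varied more, from 0.44 to 8.16 log2 CPM over all hearts, with 1, 1, 3 and 3 hearts above 5 in PBS_GFP, PBS_REV-ERBa, C26_GFP and C26_REV-ERBa. Without those 8 hearts the interaction again had 0 calls, the oxidative phosphorylation list had 14 positive interactions at an unadjusted p under 0.05, and the calcium list had 8. The glucocorticoid list went from 3 to 0 negative ones, the REV-ERB-repressed clock arm from 1 to 3, and the PER and D-box list from 0 to 6 positive ones.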

How the data were processed

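Total RNA of 29 mouse hearts was sequenced, per the labels' protocols from about 200 mg of tissue and 50 to 100 ng of RNA, with a stranded kit without polyA selection and 50 bp paired-end reads. Raw counts of reads for each RefSeq gene were deposited by the authors in 1 table. STAR 2.4.2a, DESeq2 1.24.0 and the mm10 build stand in the submitters' processing notes without a role. Which tool counted reads, and whether by strand, is not given in sources used here. A further 1 per-sample column matched no label and was not used. Gene starts are those of the table plus 1.

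Tests used edgeR 4.0.16 in R 4.3.3 unless another tool is named. Low genes were removed with filterByExpr (count of 10, total of 15), libraries scaled by TMM, and 1 quasi-likelihood model with 4 group means was fitted to all 29 libraries. Each heart is a separate animal. The interaction, both tumour effects and the contrast against 0.5 of the GFP effect were tested over 12928 genes, with Benjamini-Hochberg adjustment and a threshold of 0.05. The standard error of a log2 value is its size over the square root of F. CPM use the same scaling.

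Members and gene lists were chosen with earlier results of these data known. Named genes were the 12 smallest interaction p-values at 5 CPM or more, kept genes, those of each list's members that passed with the largest GFP effects (at most 3), 20 genes of a set list, and 26 named after their values were seen; some results are not reported here. The procedure was tested on simulated data. Each of 406 library pairs differed by more than sampling noise, the closest with a chi-square of 2.73 per degree of freedom. Promoters are the 250 bases upstream in the RefSeq table of GRCm38.p6, which held 106 of the 123 named genes. Alternatives were other scaling, DESeq2 1.42.0, limma 3.58.1 voom, robust fitting, other filters, a replicate block, an atrial covariate, a threshold of 0.1, thinning, and leaving out deep libraries or each library. Leaving out hearts with high atrial markers and a hepatocyte covariate, and list counts without control hearts or deep libraries, were added after the data were seen.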

Additional observations from a re-analysis of the deposited data

Results flagged for a closer look

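In each group of hearts the highest and lowest CPM of 119 described genes were compared with their neighbours, and 37 of 475 gene-and-group pairs held a heart that stood far from the rest for the range of its group. Chance alone picks some such hearts, so single cases carry little weight. C26_REV-ERBa replicate 9 stood apart in 11 genes, highest of its group in Hspa1a (23.8 CPM), Hspa1b (11.4 CPM), Myh7 (5317 CPM) and Phlda3 (61 CPM) and lowest of its group in Ciart (8.16 CPM), Cirh1a (6.24 CPM), Cs (1422 CPM), Dbp (78.8 CPM), Dld (224 CPM), Eno3 (315 CPM) and Oxct1 (831 CPM). C26_GFP replicate 6 stood apart in 6 genes, highest of its group in Casq2 (916 CPM), Hsph1 (66.6 CPM) and Rtn4r (26.8 CPM) and lowest of its group in Lipe (97.8 CPM), Myc (6.16 CPM) and Plin4 (554 CPM). PBS_GFP replicate 3 stood apart in 5 genes, highest of its group in Cirh1a (9.18 CPM), Gda (54.5 CPM) and Mki67 (20.9 CPM) and lowest of its group in Gabarapl1 (166 CPM) and Mt1 (14.1 CPM). PBS_REV-ERBa replicate 4 stood apart in 3 genes, highest of its group in Idh2 (718 CPM) and Nr1d1 (259 CPM) and lowest of its group in Ddit4 (29.3 CPM). C26_GFP replicate 9 stood apart in 2 genes, highest of its group in Hlf (126 CPM) and lowest of its group in Arntl (0.322 CPM). PBS_GFP replicate 1 stood apart in 2 genes, highest of its group in Dld (314 CPM) and lowest of its group in Emilin1 (81 CPM). PBS_REV-ERBa replicate 5 stood apart in 2 genes, highest of its group in Mycn (28.2 CPM) and lowest of its group in Plin4 (474 CPM). PBS_REV-ERBa replicate 3 stood apart in 2 genes, lowest of its group in Oxct1 (1363 CPM) and Pdhb (326 CPM). PBS_GFP replicate 2 stood apart in 2 genes, highest of its group in Serpina3n (22.8 CPM) and lowest of its group in Ryr2 (2156 CPM). C26_REV-ERBa replicate 7 stood apart in 1 gene, lowest of its group in Mmp3 (1.39 CPM). C26_GFP replicate 7 stood apart in 1 gene, lowest of its group in Mycn (1.09 CPM).

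C26_REV-ERBa replicate 9 also had adipocyte markers at 7.13 and mesothelial markers at 4.08 log2 CPM, the highest of all 29 hearts in both. Their part in its values was not tested. The interaction had 0 calls without this heart and 1733 genes at an unadjusted p under 0.05, and 0 calls and 1791 genes without C26_GFP replicate 6, against 1357 with all hearts (tumour by vector interaction; interaction genes at unadjusted p under 0.05).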

How the results depend on the processing

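The interaction had 0 calls under 12 of 14 other settings and in all 29 fits that left out 1 heart; DESeq2 gave 9 (9 damped, 3 for the contrast against 0.5) and limma voom 4 (4 damped). The tumour effect in REV-ERBa vector hearts had 450 calls with a replicate block, 1593 at an adjusted p under 0.1 and 418 with the hepatocyte covariate, and 476 to 1201 when 1 heart was left out (lowest without PBS_REV-ERBa replicate 5, highest without C26_REV-ERBa replicate 7). The tumour effect in GFP vector hearts had 1972 without the libraries above 10000000 counts. The kept count and the contrast against 0.5 had 1 to 2 genes without 1 heart, Jak3 joining Ly6a without PBS_REV-ERBa replicate 5 and Mycn without C26_REV-ERBa replicate 7. The cause of these shifts was not tested.

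The replicate numbers do not pair animals: same-numbered hearts of 2 groups had correlated deviations of -0.44 to 0.33. With the replicate block the interaction had 0 calls and the tumour effect in GFP vector hearts 2825. Of 123 named genes, 112 had the same sign of interaction under all 43 alternatives and 8 passed under any. The other 11 changed sign. Ifitm3 was 0.0049 with upper quartile scaling, 0.0072 with voom, 0.016 with the block, 0.048 without deep libraries, 0.048 thinned and 0.033 without high atrial hearts. Jak3 was 0.00074 with upper quartile scaling, 0.033 with the block, 0.055 without deep libraries, 0.046 thinned and 0.018 with the hepatocyte covariate. Scd3 was 0.22 with DESeq2, 0.012 with the block, 0.58 without deep libraries and 0.35 thinned. Without deep libraries Pfkfb3 was -0.14, H2-K1 0.027, Postn -0.0081 and Nr1d1 -0.089, and with voom Pfkfb3 was -0.092. Thinned, H2-K1 was 0.0044 and Gda 0.0089. Without high atrial hearts H2-K1 was 0.071, Hspa1a -0.21 and Csf2rb2 -0.016. Without 1 heart the ranges were -0.12 to 0.62 for Csf2rb2, -0.12 to 0.012 for Fads1, -0.11 to 0.0040 for Gda, -0.14 to 0.040 for H2-K1, -0.046 to 0.038 for Ifitm3, -0.059 to 0.11 for Jak3, -0.099 to 0.17 for Pfkfb3 and -0.96 to 0.43 for Scd3.

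Depth limits low genes: at 3207497 counts a gene at 1 CPM has few reads, and 4 control hearts with GFP limit every interaction.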
